A study of Homo sapiens with 4 samples.

Results

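The genes described here are 10 components of the SRF and MRTF transcription pathway and of the actin cytoskeleton it serves, chosen by name among the 61860 genes of the count table. They are the factors SRF, MRTFA and MRTFB, the actin genes ACTA2, ACTB and ACTG1, the contractile genes TAGLN, CNN1 and MYL9, and the adhesion gene VCL. They were measured by RNA-seq in 4 samples of HT1376, an established bladder cancer cell line, with both groups cultured and treated alike apart from the agent. The control group (n = 2) received an agent labelled WFI for 48 h, and the other group (n = 2) received 1 nM enfortumab vedotin (EV) for 48 h. EV is an antibody-drug conjugate that delivers monomethyl auristatin E, a microtubule-disrupting agent, to cells carrying nectin-4. Whether the samples of a group came from separate cultures is not stated in the labels. The p-values therefore cover the spread among these samples alone, and that spread may be technical.

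SRF is a DNA-binding factor that recognises the CArG box, a short element rich in A and T, near the start sites of many actin and contractile genes. MRTFA and MRTFB are its coactivators. They bind monomeric actin and are held out of the nucleus by it, and they enter the nucleus when actin assembles into filaments, so the pathway couples the state of actin to transcription of actin genes. SRF also works with the ternary complex factors ELK1, ELK3 and ELK4, which link it to growth factor signalling and immediate early genes such as FOS.

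The CArG boxes in the promoters of the members are printed in capitals within lower case flanks, because these elements define the family. Each run reads 5′ to 3′ on the strand of the gene, from RefSeq on GRCh38.p14, and positions count back from the annotated start. The search covered both strands of windows from 250 bases before to 50 bases after each start. Windows were matched for 7 of the 10 members, and ACTB, TAGLN and MYL9 were not matched. A consensus CArG box was found in SRF and ACTG1. In ACTA2 the matches were CArG-like, meaning that 1 of the 6 inner bases was G or C.
SRF, chr6:43171169-43171268, plus strand, -100 to -1: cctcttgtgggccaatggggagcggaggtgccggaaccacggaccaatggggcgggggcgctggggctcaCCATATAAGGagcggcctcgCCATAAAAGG
ACTG1, chr17:81512840-81512939, minus strand, -140 to -41: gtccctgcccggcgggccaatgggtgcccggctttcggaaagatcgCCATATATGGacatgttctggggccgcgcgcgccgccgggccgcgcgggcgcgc
ACTA2, chr10:88952814-88952913, minus strand, -140 to -41: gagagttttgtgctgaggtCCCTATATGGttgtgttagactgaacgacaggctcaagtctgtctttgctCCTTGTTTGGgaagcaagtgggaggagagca
The consensus box occurs in 1.29% of the 35116 promoter windows of the table, and the CArG-like form in 6.94%. Counted by gene, the shares are 1.6% and 8.46% of the 27305 genes with a window, as a gene can have several. A match is a description of these letters. The windows of MRTFA (3 windows), MRTFB (4), CNN1 (1) and VCL (1) held neither form. That says only that the letters are not in the 300 bases of each window.

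Total counts ran from 19368791 to 20727175 per sample. The contrast was wide, with 6019 genes called higher and 5509 lower in EV among 17465 tested (edgeR's quasi-likelihood test, Benjamini-Hochberg adjusted p below 0.05). It also followed gene length. Among protein coding genes tested, the median log2 fold change was 0.59 in the decile of shortest merged exon length and -0.60 in the longest. Every fold change of a member was therefore recomputed after a correction for merged exon length and GC content, and after the same correction with the length of the principal transcript. Those corrections moved the median log2 fold change of all genes by -0.15 and -0.17, and left 4765 and 4673 genes higher and 6298 and 6453 lower. Among the labelled cell type's markers, KRT7, KRT8 and KRT18 were well expressed. No count was listed for KRT20. Summed over each group, control first, UPK3A had 0 and 1 counts, CDH1 1 and 16, KRT19 7 and 1, and EPCAM 9 and 41. NECTIN4, which encodes the antigen that EV binds, had 57 counts over the controls and 15 over EV. No reference profile of the line was used to check its identity.

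After EV the SRF transcript rose while both coactivator transcripts fell, the ratio of ACTB to ACTG1 rose, and VCL fell. CNN1 went from 12 counts over the controls to 472 over EV, while the calls of TAGLN and MYL9 depended on the processing. All 10 members passed the filter on low counts. In edgeR's test 5 were called higher (SRF, ACTB, TAGLN, CNN1 and MYL9), 4 lower (MRTFA, MRTFB, ACTG1 and VCL) and ACTA2 was not called. Of all genes tested, 34.5% were called higher and 31.5% lower, 66.0% in all. The members' median log2 fold change was 0.10, against 0.02 for all genes tested. This order turned round after the corrections (-0.27 against -0.13 with merged exons, -0.32 against -0.15 with principal transcripts). It also turned with no count filter (0.02 against 0.24), and without control replicate 1 (0.01 against 0.09) or control replicate 2 (0.07 against 0.09). Most changes were small: 2 members, MRTFB and CNN1, were called with an absolute log2 fold change of at least 1, against 30.8% of all genes. With the corrections the split was 2 higher and 6 lower with merged exons, and 3 and 6 with principal transcripts. The groups did not overlap for any of the 10 members, which held for 82.8% of all genes tested. Levels are in CPM, that is, counts relative to the library total after TMM adjustment, so a rise or fall is measured against the rest of the transcriptome of that sample. In these bulk samples, fewer cells expressing a gene and less RNA per cell cannot be told apart.

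**Figure D1:**
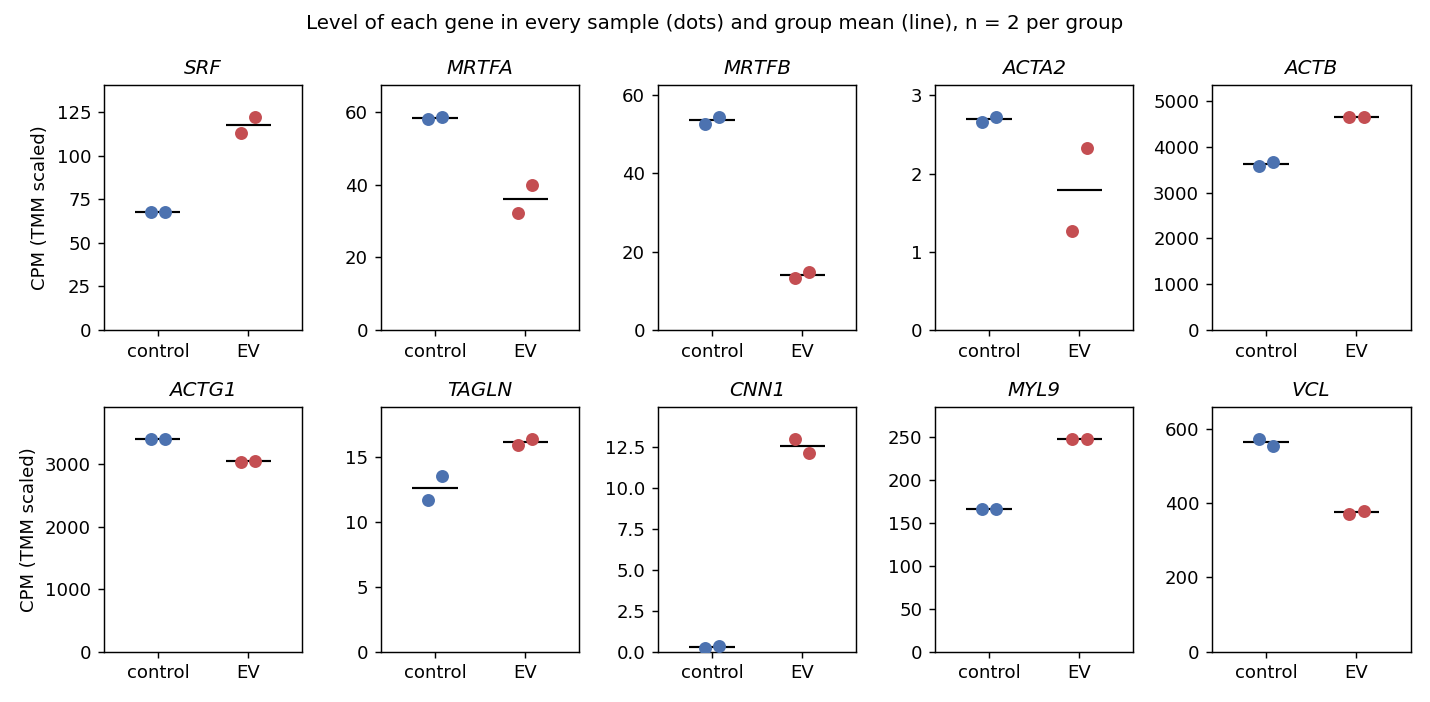
Level of each of the 10 genes in CPM (vertical axes, each from 0) in the 2 control and 2 EV samples (dots), with the group mean as a line. SRF, ACTB, TAGLN, CNN1 and MYL9 lie higher in both EV samples, and the EV samples of ACTA2 lie apart at 1.26 and 2.32 CPM.

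SRF (ENSG00000112658, hg38 chromosome 6, 43171299 to 43181507, plus strand) stood at 67.9 and 67.7 CPM in the controls and at 113 and 122 CPM in EV. Both EV samples thus lay well above both controls. The rise was 1.73-fold (log2 fold change 0.79, SE 0.06, edgeR adjusted p = 4.45e-07), which placed SRF at percentile 77.1 of the fold changes of all genes tested. Its log2 fold change was 0.34 after the merged exon correction and 0.57 after the principal transcript correction, and both were called.

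MRTFA (ENSG00000196588, chromosome 22, 40410281 to 40636702, minus strand) had 58.0 and 58.7 CPM in the controls and 32.1 and 40.0 CPM in EV. Every EV value was below every control value, with a wider spread in EV. The fall had a log2 fold change of -0.69 (SE 0.10, edgeR adjusted p = 9.90e-05), and -0.93 and -1.11 after the corrections. MRTFB (ENSG00000186260, chromosome 16, 14071321 to 14266773, plus strand), the second coactivator, had 52.7 and 54.4 CPM in the controls and 13.1 and 14.9 CPM in EV. This was a 3.82-fold fall, at percentile 4.2 of all fold changes (log2 fold change -1.93, SE 0.10, edgeR adjusted p = 2.22e-08). MRTFB has 16578 bases of merged exons and lies in the longest decile, where 63.3% of genes were lower and the median log2 fold change was -0.60. Its own value was lower than that median by a further -1.33, and after the corrections it was -1.50 and -1.53.

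Ratios of counts within a library do not depend on scaling between libraries. MRTFA counts per SRF count were 0.854 and 0.867 in control libraries against 0.285 and 0.327 after EV. For MRTFB the ratios to SRF were 0.776 and 0.803 in control libraries against 0.117 and 0.122 after EV. The balance between the coactivators also shifted, with MRTFA over MRTFB at 1.10 and 1.08 in control libraries against 2.44 and 2.69 after EV. The ratios are descriptions and were not tested, and they are not corrected for length. From the corrected fold changes MRTFA over MRTFB was 1.48-fold and 1.34-fold higher in EV, against 2.36-fold without correction. MRTFB over SRF was 3.57-fold and 4.30-fold lower, against 6.62-fold. MYOCD, the coactivator of smooth muscle and heart, lay below the filter, with 0 counts over the controls and 2 and 5 counts in EV.

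The ternary complex partners of SRF were lower too. ELK1, ELK3 and ELK4 were each called lower in edgeR's test, and ELK1 and ELK3 were named after their values were seen. ELK4 went from 83.4 ± 0.553 to 30.0 ± 1.21 CPM (SD, n = 2), ELK3 from 248 ± 2.96 to 148 ± 8.20 CPM and ELK1 from 99.5 ± 0.120 to 82.4 ± 1.08 CPM. Their log2 fold changes were -1.48, -0.74 and -0.27, and they were negative and called in every alternative run. The fall of ELK4 was smaller after the corrections, at -0.90 and -0.80. With MRTFA and MRTFB, the 5 partner genes with enough counts to test were thus called lower, as were 31.5% of all genes tested. Among protein coding genes this share ran from 11.6% in the shortest length decile to 63.3% in the longest, which holds MRTFB. It was 40.6% in the decile of MRTFA.

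**Figure D2:**
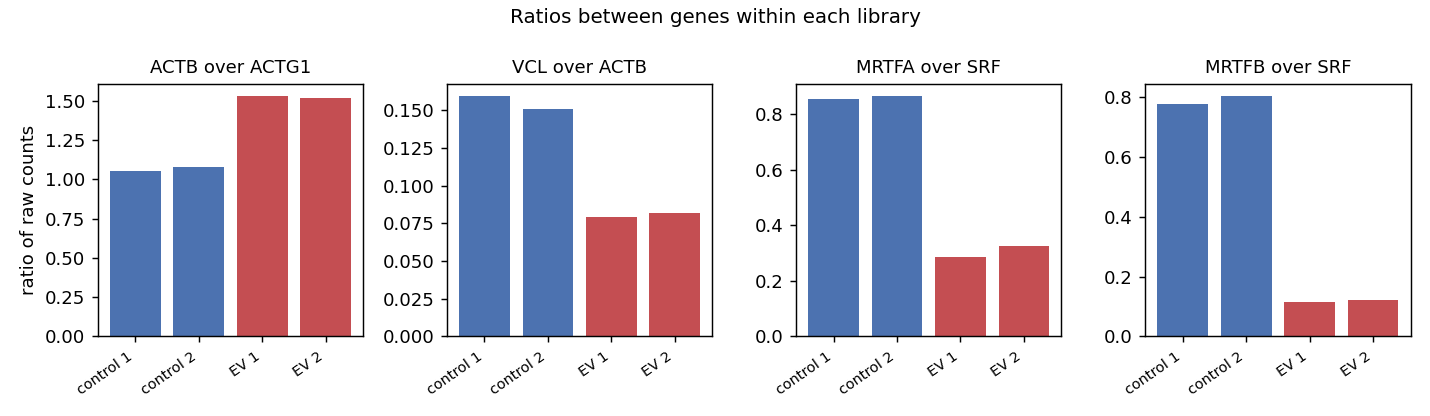
Ratio of raw counts between pairs of genes within each of the 4 libraries (bars, each axis from 0), with controls in blue and EV in red. ACTB over ACTG1 is higher in EV, at 1.53 and 1.52, and the ratios of VCL to ACTB and of MRTFA and MRTFB to SRF are lower.

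ACTB and ACTG1 encode the beta and gamma cytoplasmic actins, near-identical proteins that form most of the actin of non-muscle cells. Per kilobase of principal transcript they were by far the highest members, at 1890 ± 31.0 and 1510 ± 0.917 CPM per kb in the controls (SD, n = 2). ACTB (ENSG00000075624, chromosome 7, 5527147 to 5563784, minus strand) had 3589 and 3673 CPM in the controls and 4653 and 4644 CPM in EV. That is a 1.28-fold rise (log2 fold change 0.36, SE 0.02, edgeR adjusted p = 7.01e-08). The sign of this call depended on the processing. After the corrections the log2 fold change was -0.10 and -0.13, both called lower, while it lay 0.03 and 0.02 above the median of all genes under the same corrections. ACTB is in a length decile whose median log2 fold change was 0.26 without correction.

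ACTG1 (ENSG00000184009, chromosome 17, 81509971 to 81523847, minus strand) had 3407 and 3404 CPM in the controls and 3037 and 3057 CPM in EV. The fall was small, at a log2 fold change of -0.16 (SE 0.02), but exceeded the differences within groups (edgeR adjusted p = 4.30e-05). It was larger after the corrections, at -0.68 and -0.63. The shift between the actins did not rest on scaling: the count ratio of ACTB to ACTG1 was 1.05 and 1.08 in control libraries against 1.53 and 1.52 after EV. From the fitted fold changes the log2 change of this ratio was 0.52, and 0.58 and 0.49 after the corrections. ACTB and ACTG1 together took 0.743% and 0.753% of all counts in control libraries against 0.722% and 0.719% after EV. Both genes have many pseudogene copies, and how reads matching several copies were counted is not stated. The 47 actin pseudogenes and POTE genes listed summed to 149 and 126 counts in control libraries against 190 and 214 after EV, against 55243 or more for each actin gene in each sample.

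ACTA2, the smooth muscle alpha actin (ENSG00000107796, chromosome 10, 88935074 to 88991339, minus strand), was scarce: control libraries held 55 and 57 counts and EV libraries 23 and 45. Its levels were 2.66 and 2.72 CPM in the controls and 1.26 and 2.32 CPM in EV. Although both EV values were below the controls, the EV samples differed widely, and ACTA2 did not pass the test (log2 fold change -0.58, SE 0.38, edgeR adjusted p = 0.200). Single samples and the correction decided the call. The edgeR adjusted p was 0.0255 without EV replicate 2, at a log2 fold change of -1.10, and 0.524 without EV replicate 1, at -0.22. It was 0.0352 and 0.0250 after the corrections, at -1.01 and -1.09. ACTA2 overlaps FAS and STAMBPL1, which lie on the opposite strand with 571 to 980 counts per sample, and whether the counting used strand is not stated.

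Muscle actins outside the member list were examined as companions, and were named after their values were seen. ACTA1, the skeletal muscle actin, had 2 counts over the controls and 238 over EV, a ratio of 132 (exact binomial 95% interval 36.0 to 1090, counting error only). ACTC1, the cardiac actin, had 8 and 75 counts, a ratio of 10.4 (interval 5.00 to 24.9). ACTG2, the enteric smooth muscle actin, was not called, with 38 and 39 counts in control libraries against 62 and 41 after EV (edgeR adjusted p = 0.188). Of the 6 other actin-family genes listed 5 passed the filter, of which 4 were called higher and 0 lower, against 34.5% and 31.5% of all genes tested. ACTA1 and ACTC1 had at most 12 counts over the controls, and 95.7% of the genes tested with so few were called higher and 0 lower. ACTL6A, a chromatin-remodelling actin relative, went from 61.2 ± 3.34 to 94.1 ± 0.183 CPM. ACTR1A, a dynactin subunit, had a log2 fold change of 0.09 (edgeR adjusted p = 0.0372), which the corrections turned to -0.24 and -0.25. Its call was also lost with the replicate block (edgeR adjusted p = 0.0620), with no count filter (0.792), and without control replicate 1 (0.569), control replicate 2 (0.320) or EV replicate 2 (0.124).

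CNN1 encodes calponin, an actin-binding protein that marks differentiated smooth muscle (ENSG00000130176, chromosome 19, 11538717 to 11550323, plus strand). Control libraries held 5 and 7 of its counts, EV libraries 237 and 235. Levels went from 0.242 and 0.335 CPM to 13.0 and 12.1 CPM, with the groups far apart. The ratio was 43.5 (exact binomial 95% interval 24.7 to 84.8, counting error only), with an edgeR log2 fold change of 5.42 (SE 0.29, adjusted p = 3.68e-08) and values of 4.87 and 4.84 after the corrections. A gene so near 0 in the controls could pass the filter mainly through its EV counts. Of 1450 genes tested with at most 12 counts over both controls, 95.7% were called higher and 0 lower, and 536 had a fold change at or above that of CNN1. The number of genes with at least 1 count was 26258 and 26587 in control libraries against 29456 and 28770 after EV, and its part in the rise of CNN1 was not tested. In EV the level of CNN1 per kilobase, 7.71 ± 0.386 CPM per kb, was close to that of TAGLN.

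TAGLN encodes transgelin, another actin-binding protein of smooth muscle (ENSG00000149591, chromosome 11, 117199321 to 117204782, plus strand). It had 11.7 and 13.6 CPM in the controls and 15.9 and 16.4 CPM in EV. The groups did not overlap, but the margin was narrow (log2 fold change 0.36, SE 0.13, edgeR adjusted p = 0.0340). Leaving out any one of the 4 samples ended the call. The edgeR adjusted p rose to 0.403 when control replicate 1 was dropped and to 0.0855 when control replicate 2 was. Dropping EV replicate 1 gave 0.0505, and dropping EV replicate 2 gave 0.0724. DESeq2 did not call TAGLN either (adjusted p = 0.0989), nor did edgeR with no count filter (adjusted p = 0.153) or after the corrections. The corrected log2 fold change was -0.07 and -0.10. These values lay 0.06 and 0.05 above the median of all genes under the same corrections. TAGLN overlaps PCSK7 on the opposite strand, which had 745 to 840 counts per sample.

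MYL9 encodes a regulatory light chain of non-muscle and smooth muscle myosin (ENSG00000101335, chromosome 20, 36541484 to 36551447, plus strand). Its levels were 167 and 166 CPM in the controls and 248 CPM in both EV samples. Samples within a group were nearly alike, and the rise was 1.49-fold (log2 fold change 0.57, SE 0.04, edgeR adjusted p = 1.90e-07). After the merged exon correction the log2 fold change was 0.0085 and not called (edgeR adjusted p = 0.856), and after the principal transcript correction it was 0.16 and called. These values lay 0.14 and 0.31 above the median of all genes under the same corrections. The decile of merged exon length that holds MYL9 had a median log2 fold change of 0.34. Against its relative MYL12A, the count ratio of MYL9 was 0.630 and 0.667 in control libraries against 0.917 and 0.982 after EV. MYL12A itself was not called (log2 fold change 0.02 without correction). Another relative, MYL12B, was called higher at 0.50, near the 0.57 of MYL9, so the shift in the ratio holds against MYL12A alone.

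VCL encodes vinculin, which links integrin and cadherin adhesions to actin filaments (ENSG00000035403, chromosome 10, 73995193 to 74121363, plus strand). It had 573 and 553 CPM in the controls and 369 and 380 CPM in EV, with no overlap. The fall exceeded the spread between samples, at a log2 fold change of -0.59 (SE 0.03) and an edgeR adjusted p of 5.65e-08. It was -0.44 and -0.51 after the corrections. AP3M1, which overlaps VCL on the opposite strand, had 1277 to 2364 counts per sample, with the lower values in EV. VCL lies in the ninth decile of merged exon length, with a median log2 fold change of -0.36. Its count ratio to ACTB was 0.160 and 0.151 in control libraries against 0.0794 and 0.0818 after EV. In the fitted fold changes this ratio was 1.93-fold lower in EV, and 1.26-fold and 1.30-fold lower after the corrections for length and GC content.

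**Figure D3:**
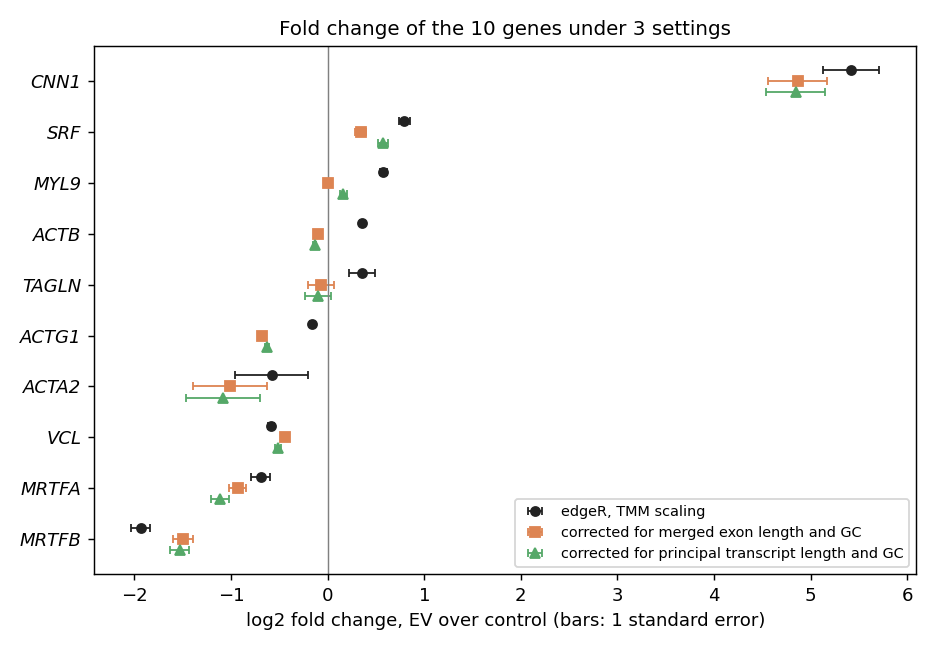
Log2 fold change of EV over control for the 10 genes (horizontal axis, bars of 1 standard error) in edgeR with TMM scaling and after 2 corrections for length and GC content. The values of MRTFA, MRTFB, ACTG1, VCL, SRF and CNN1 keep their sign, whereas ACTB and TAGLN pass from 0.36 to just below 0. The median of all genes tested was 0.02 without correction, and -0.13 and -0.15 after the corrections.

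By level per kilobase of principal transcript, the order in the controls was ACTB, ACTG1, VCL (103 ± 2.57 CPM per kb), MYL9 (59.0 ± 0.125), MRTFA (20.1 ± 0.169), SRF (16.1 ± 0.0332), MRTFB (6.22 ± 0.141), TAGLN (5.84 ± 0.607), ACTA2 (2.00 ± 0.0323) and CNN1 (0.177 ± 0.0401). The levels of MRTFB and TAGLN in the controls did not differ beyond their spread. In EV, MYL9 stood above VCL at 87.8 ± 0.0685 against 68.2 ± 1.35 CPM per kb. SRF likewise stood above MRTFA in EV, at 28.0 ± 1.59 against 12.4 ± 1.93 CPM per kb, the opposite of the order in the controls. Both orders depend on the length used. The principal transcript and the merged exons hold 2901 and 6533 bases for MRTFA, and 5490 and 9992 bases for VCL. In CPM, SRF already stood above MRTFA in the controls, at 67.83 ± 0.140 against 58.35 ± 0.491. CNN1 and TAGLN, at 7.71 ± 0.386 and 7.47 ± 0.158 CPM per kb, did not differ beyond their spread in EV. MRTFB fell below both, to 1.63 ± 0.143 CPM per kb, next to ACTA2 at 1.33 ± 0.556, from which it did not differ beyond the spread.

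The other SRF and MRTF targets were mostly genes of the cytoskeleton and adhesions, with some others such as CCN1 and CCN2. Of 40 listed, all 40 passed the filter, 18 were higher, 16 were lower and 6 were not called. That is 45.0% higher and 40.0% lower, against 34.5% and 31.5% of all genes tested. Their median log2 fold change was 0.05, against 0.02 for all genes tested. It was -0.05 and -0.16 after the corrections, against -0.13 and -0.15 for all genes, and -0.03 against 0.24 with no count filter. CCN2, a matricellular protein, rose from 108 ± 1.90 to 1132 ± 5.21 CPM, while its relative CCN1 fell from 711 ± 10.5 to 207 ± 0.322 CPM. The ratio of CCN2 to CCN1 counts was 0.156 and 0.149 in control libraries against 5.44 and 5.49 after EV. The tropomyosin TPM3 rose from 677 ± 0.791 to 1318 ± 14.5 CPM. ITGA5, the fibronectin receptor subunit, was at 480 ± 2.01 CPM in the controls and fell to 177 ± 11.4 CPM in EV. Its log2 fold change was -1.44 (SE 0.04) at an edgeR adjusted p of 3.18e-10.

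The list of ternary complex factors and immediate early genes held larger rises. Of 16 genes, 10 were higher, 4 were lower and 2 were not called, against 34.5% higher and 31.5% lower of all genes tested. The list's median log2 fold change was 1.11, and 0.90 and 0.85 after the corrections. FOS and FOSB, subunits of AP-1, had log2 fold changes of 7.97 and 4.38. The 4 lower genes were the 3 ELK genes and MCL1, an antiapoptotic gene, at -0.85. The summed level of the list went from 1750 and 1735 CPM in the controls to 5057 and 5281 CPM in EV, whereas that of the 10 members went from 7929 and 7994 to 8495 and 8537 CPM. Most of the members' sum came from ACTB, at 3631 CPM in the controls and 4649 in EV, and ACTG1, at 3406 and 3047. The sign of the ACTB call depended on the processing.

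Genes of actin monomer binding and filament turnover set the amount of free actin that MRTF proteins sense. Of 26 listed and tested, 9 were higher, 8 were lower and 9 were not called, which is 34.6% higher and 30.8% lower, near the 34.5% and 31.5% of all genes tested. The median log2 fold change was -0.02, and 0 were called with an absolute value of 1 or more. With the principal transcript correction 13 were lower. PFN1, which encodes the monomer-binding protein profilin, rose from 784 ± 11.9 to 1507 ± 14.2 CPM, with a log2 fold change of 0.94 that became 0.33 after either correction. TMSB10, a thymosin that binds actin monomers, rose from 1236 ± 0.550 to 1973 ± 48.9 CPM, but its log2 fold change of 0.67 became -0.0047 and 0.01 after the corrections. ACTR2, a subunit of the branching ARP2/3 complex, fell from 709 ± 11.5 to 479 ± 0.446 CPM, and the filament-severing gene GSN fell from 151 ± 1.54 to 89.0 ± 0.258 CPM.

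**Figure D4:**
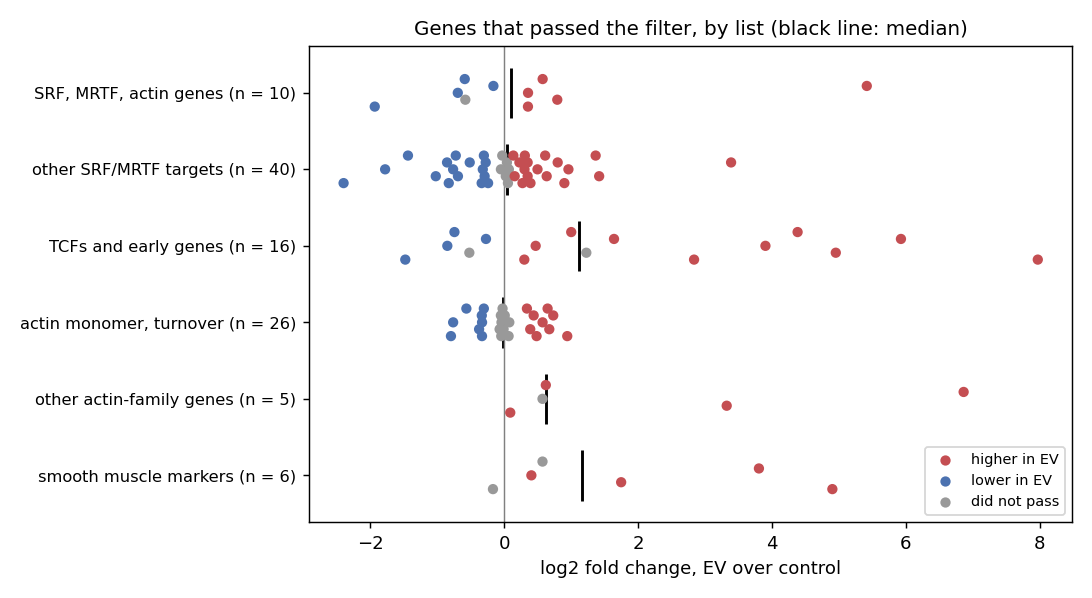
Log2 fold change of EV over control (horizontal axis) for each gene that passed the filter, by list, with the list median as a black line and colours for genes called higher, called lower or not called. The 10 members and the 40 other targets lie on both sides of 0, while the median of the list of ternary complex factors and early genes is 1.11.

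Genes with the same CArG letters did not all move the same way. The box of ACTG1 also occurs in EGR1 and EGR2, immediate early transcription factors named after their values were seen, and a box of SRF occurs in SMTN, a smoothelin gene. These are printed to set the shared letters beside the changes of their genes.
EGR1, chr5:138465376-138465425, plus strand: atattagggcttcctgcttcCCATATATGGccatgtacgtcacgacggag
EGR2, chr10:62816408-62816457, minus strand: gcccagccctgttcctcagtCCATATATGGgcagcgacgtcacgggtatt
SMTN, chr22:31084932-31084981, plus strand: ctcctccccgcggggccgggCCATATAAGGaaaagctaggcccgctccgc
EGR1 and EGR2 were higher, at log2 fold changes of 1.64 and 4.95, whereas ACTG1 was lower at -0.16. SMTN, at 0.41, was higher as SRF was, although it was not called after the principal transcript correction (0.02, edgeR adjusted p = 0.595). Of 178 genes tested with a consensus box in a promoter window, 38.2% were higher and 35.4% were lower, with a median log2 fold change of 0.06. Of 11676 with a window and no box, 34.7% were higher and 34.1% were lower, with a median of 0.0028. Of 18 genes of the lists described here with a box, 11 were higher and 5 lower, with a median of 0.33. The 11 include ACTA1 and ACTC1, which had at most 12 counts over the controls. Of all genes tested with so few, 95.7% were higher and 0 lower. Boxes were found in 10 of 39 other SRF and MRTF targets with a window, against 1.6% of all genes with a window, and in 2 of 7 members. Both lists were chosen as genes of this pathway, so these shares describe the lists and are not a test.

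Markers of smooth muscle and fibroblasts were examined because CNN1, TAGLN and ACTA2 mark those cells. Of 10 smooth muscle markers 6 passed the filter, of which 4 were higher and 0 lower, against 34.5% and 31.5% of all genes tested. The higher genes were SMTN, SYNPO2, HSPB6 and DES. SYNPO2 had 86 counts over the controls and 261 over EV, HSPB6 had 4 and 54, and DES had 1 and 34. HSPB6 and DES had at most 12 counts over the controls, where 95.7% of genes tested were higher and 0 lower, and with a minimum of 50 counts in 2 samples 2 markers were higher. The summed level of the list was 325 and 315 CPM in the controls and 423 and 431 CPM in EV, and most of it came from SMTN (308 ± 7.86 and 408 ± 5.28 CPM), which many cell types express. MYH11 had 1 count over the controls and 0 over EV, PLN had 1 and 0, and LMOD1 had 14 and 9. The part of other cells in the rise of CNN1 was not tested.

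Of 9 fibroblast markers 4 passed the filter, 1 was higher and 0 were lower, against 34.5% and 31.5% of all genes tested. The summed level of the list was 13.5 and 13.7 CPM in the controls and 16.5 and 13.2 CPM in EV. The higher gene was FAP, at 3 counts in the control libraries together against 51 after EV. Among genes tested with at most 12 counts over the controls, 95.7% were higher and 0 lower. COL1A1, which made up most of the summed level of the controls, had 368 and 267 counts and was not called. Below the filter, THY1 had 0 and 30 counts, DCN 3 and 24, and LUM 0 and 7.

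Of 19 urothelial markers 12 passed the filter, of which 10 were higher and 1, NECTIN4, was lower, against 34.5% and 31.5% of all genes tested. The summed level of the list was 1631 and 1614 CPM in the controls and 3462 and 3500 CPM in EV. KRT8 rose from 733 ± 8.56 to 1896 ± 10.5 CPM and FOXA1 from 21.6 ± 0.502 to 41.6 ± 0.804 CPM. GATA3 had 35 counts over the controls and 378 over EV, and KRT5 had 0 and 231. KRT5, TP63, UPK1A and EPCAM, 4 of the 10, had at most 12 counts over the controls, where 95.7% of genes tested were higher and 0 lower. CNN1, DES and HSPB6 also had at most 12. ELF3, another urothelial marker that passed the filter, was not called. The part of the urothelial markers in the results for CNN1 and the smooth muscle markers was not tested.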

How the data were processed

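RNA-seq was carried out on 4 samples of total RNA from HT1376 cells, with a directional library kit per the labels' protocols. The authors deposited 1 table of raw whole-number counts, listed by Ensembl gene, on hg38 per the submitters' processing notes. Which aligner, counter, strand setting and annotation were used is not stated in the labels or the file. Positions and lengths came from GENCODE 29 on the same build.

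Counts were tested with edgeR 4.0.16 in R 4.3.3 (TMM scaling, filterByExpr, quasi-likelihood test, group as the only term), over 17465 genes, with Benjamini-Hochberg adjustment over all of them. The standard error was the log2 fold change divided by the square root of F. CPM values were computed from the counts. The procedure was tested on simulated data with 200 genes changed and no length trend. That simulation therefore does not cover a contrast as wide as this one, or its length trend. Intervals cover counting error only.

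The tests were repeated with DESeq2 1.42.0, with upper quartile or RLE scaling, without a filter or with a minimum of 50 counts in 2 samples, with a replicate block, without each sample in turn, and with per-sample offsets from splines on merged exon length and GC content (97.8% of genes tested had both). The principal transcript version was chosen after seeing the data. The members and lists were chosen with earlier results of these data known. Named genes were all members and, from each list, the 2 higher and 2 lower genes with the smallest adjusted p and a mean log2 CPM of 2 or more, plus markers. One gene list and 1 marker are not reported here, and lists are counted without them.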

Additional observations from a re-analysis of the deposited data

How the results depend on the processing

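SRF, CNN1, MRTFA, MRTFB, ACTG1 and VCL kept their direction and their call in every alternative run; MYL9 lost its call after the merged exon correction, and ACTB, TAGLN and ACTA2 changed as follows. ACTB was at -0.0991 and TAGLN at -0.0685 after the merged exon correction, and at -0.134 and -0.104 after the principal transcript correction, while TMSB10 was at -0.0047 after the former and ACTR1A at -0.241 and -0.254. The median of all genes was -0.13 and -0.15 after the 2 corrections. The cause of the length trend was not tested. The members' higher count was 2 and 3 after these corrections, and leaving out any one sample gave 4 members higher and 4 to 5 lower. With the principal transcript correction 13 genes of actin turnover were lower, and 1 other actin-family gene was lower after either correction. With no count filter the median of all genes shifted by 0.22, and 3 fibroblast markers were higher and 2 urothelial markers lower. With 50 counts in 2 samples, 2 smooth muscle and 0 fibroblast markers were higher and 0 urothelial markers lower. Against 1 in the report, the urothelial lower count was 0 with DESeq2, and 2 with the replicate block and the merged exon correction. Leaving out a sample gave 1 to 4 fibroblast markers higher, 0 to 1 lower, and 0 to 2 urothelial markers lower. With the replicate block 5957 genes were higher and 5573 lower, and 5 and 4 members. The labels do not say that replicate numbers pair samples, and same-numbered samples deviated with a correlation of 0.0159 across genes. With 2 samples per group, the standard errors were widest for ACTA2 (0.38), CNN1 (0.29) and TAGLN (0.13) on the log2 scale, the 3 members with the fewest counts in the controls.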
